A study of Gallus gallus with 6 samples.

Results

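The heat shock protein and chaperone genes of chicken monoblasts transformed by v-Myb were compared between wild type v-Myb and its deltaP mutant. Members were all genes whose single symbol in the array annotation begins with HSPA, HSPB, HSPD, HSPE, HSPH, HSP90, HSF or DNAJ, or is TCP1 or CCT with a number. This gave 77 of 13051 annotated genes, read from 150 probe sets. Each gene was represented by the probe set with the highest mean over the 6 arrays. By name the rule also takes in HSF2BP, an HSF2-binding protein best known from meiosis, HSPBAP1, which binds small heat shock proteins, and HSPB11, a component of intraflagellar transport.

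Heat shock proteins and chaperones bind proteins that are unfolded or still being made, keep them from clumping and help them to fold. HSP70 proteins (the HSPA genes) hold short exposed stretches of a client in a cycle driven by ATP; J-domain proteins (DNAJ) bring the clients and start the cycle, and HSP110 proteins (HSPH) help to end it by exchanging the nucleotide. HSP90 proteins act late, on kinases, receptors and other nearly folded clients, and the ring-shaped chaperonins enclose a client, with HSPD1 and HSPE1 in mitochondria and the CCT ring, which folds actin and tubulin, in the cytosol. Heat shock factors (HSF) are the transcription factors that switch on many of these genes under stress. In chicken cells the cellular Myb protein, from which v-Myb derives, is known to bind and activate HSF3, a factor that works beside HSF1 in birds.

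The values came from chicken monoblasts, immature precursors of monocytes and macrophages, of the Brown Leghorn breed. Every culture was primary cells transformed by an avian v-Myb oncoprotein and moved to culture 16 days after infection. One group carried wild type v-Myb (3 biological replicates) and the other the mutant called deltaP (3 biological replicates), whose altered residues the labels do not give, while the series title names the leucine zipper region. No group without v-Myb was analysed, and the labels do not say how many birds the cultures came from.

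Of the 77 members, 61 (79.2%) had a log2 value over 4 on at least 3 of the 6 arrays and were tested, against 59.5% of all annotated genes (7768 of 13051). One of the 61, HSF2BP, passed on exactly 3 arrays, all of them wild type, so its selection was not independent of its difference. The 16 untested members were DNAJB5, DNAJB8, DNAJB13, DNAJC5B, DNAJC6, DNAJC22, DNAJC24, HSF4, HSF5, HSPA12A, HSPB1, HSPB2, HSPB3, HSPB7, HSPB7L and HSPB8. Their mean log2 values lay between 1.8 and 3.47, and their differences between -0.07 and 0.32. Leaving out HSPB11, 6 of the 7 small heat shock protein genes, among them HSPB1, the classic stress-induced member in mammals, were not above the filter in either group.

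The deposited table allowed comparison only within same-numbered pairs of arrays. Within each probe set, wild type plus deltaP came to the same sum in replicates 1, 2 and 3 (largest gap 0.00013 log2 units): the replicate number had been taken out of the values, and 3 independent differences remained. Errors below are the SD of those differences, called pairs 1, 2 and 3, and a single array's value is a deposited value, not a measured level. Of the markers of the monocyte and macrophage lineage, 13 of 14 with a probe set were tested, including CSF1R and SPI1, and MRC1 was not above the filter. All 10 heterophil granulocyte markers were tested too. Few markers of other lineages were tested, with 3 of 17 for fibroblasts, 4 of 13 for lymphocytes, 2 of 5 for thrombocytes and 4 of 10 for erythroid cells, although single genes of these lists were bright (TARP, a T cell receptor gene, had means of 10.75 in wild type and 7.69 in deltaP). In bulk RNA a lower value cannot be told apart between fewer cells of a type and less RNA per cell.

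No chaperone gene passed the threshold. The limma fit, blocked on replicate number, gave 0 of 61 members an adjusted p under 0.05, as it did 0 of 7768 genes (0.0% of genes tested). At an unadjusted p under 0.05, limma gave 2 members higher in deltaP, HSPH1 and DNAJC13, where 3.89% of all genes tested were in that class. It gave 4 members lower, HSPA2, HSF3, HSF2BP and DNAJB4, where 6.04% of all genes were. The members' shares were 3.28% and 6.56%, near the background. HSF2BP, which passed the filter on its wild type arrays alone, is also in the counts of lower members that follow. Without the block, which takes the centred values as independent and so has 4 residual degrees of freedom in place of 2, an adjusted p under 0.05 was reached by 3 members higher in deltaP (4.92% of members, 3.55% of all genes) and by 2 lower (3.28% of members, 4.69% of all genes). In 11 members all 3 pairs were higher in deltaP (18.0% of members, 17.5% of all genes) and in 7 all 3 pairs were lower (11.5% of members, 15.9% of all genes). In these 18 members the 3 deltaP and the 3 wild type values did not overlap, which on values centred within pairs is the same statement. The median log2 difference of the members was 0.12, against 0.01 over all genes tested. It was 0.03 without pair 3, equal to the 0.03 of all genes in that setting, 0.04 with no filter on low values and 0.05 with the mean of a gene's probe sets.

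HSPH1, the HSP110 nucleotide exchange factor of the cytosol, had the smallest p of the members. Its log2 values were 6.87, 6.89 and 6.72 on the wild type arrays of replicates 1, 2 and 3, and 7.87, 7.86 and 8.02 on the deltaP arrays. Every deltaP value was above every wild type value, which on centred values restates that all 3 pairs were higher. The gene was 2.13-fold higher in deltaP, a log2 difference of 1.09 ± 0.18 (SD, n = 3 pairs; 95% confidence interval 0.65 to 1.52), with an adjusted p of 0.189 in limma (unadjusted p = 0.000958). Its differences were 1, 0.97 and 1.3 in pairs 1, 2 and 3. In pairs 1, 2 and 3 the difference was above that of 97.4%, 98.3% and 98.4% of the genes tested. The adjusted p in limma was 0.0079 without the block, the lowest of the alternatives run, and 0.644 with no filter on low values, the highest. The fit without the block takes values centred within pairs as independent, so its p is no support. The other HSPH1 probe set, with a mean log2 value of 3.52, was below the filter on all arrays and had differences of -0.07, -0.03 and 0.38, so only 1 probe set measured the gene.

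**Figure D1:**
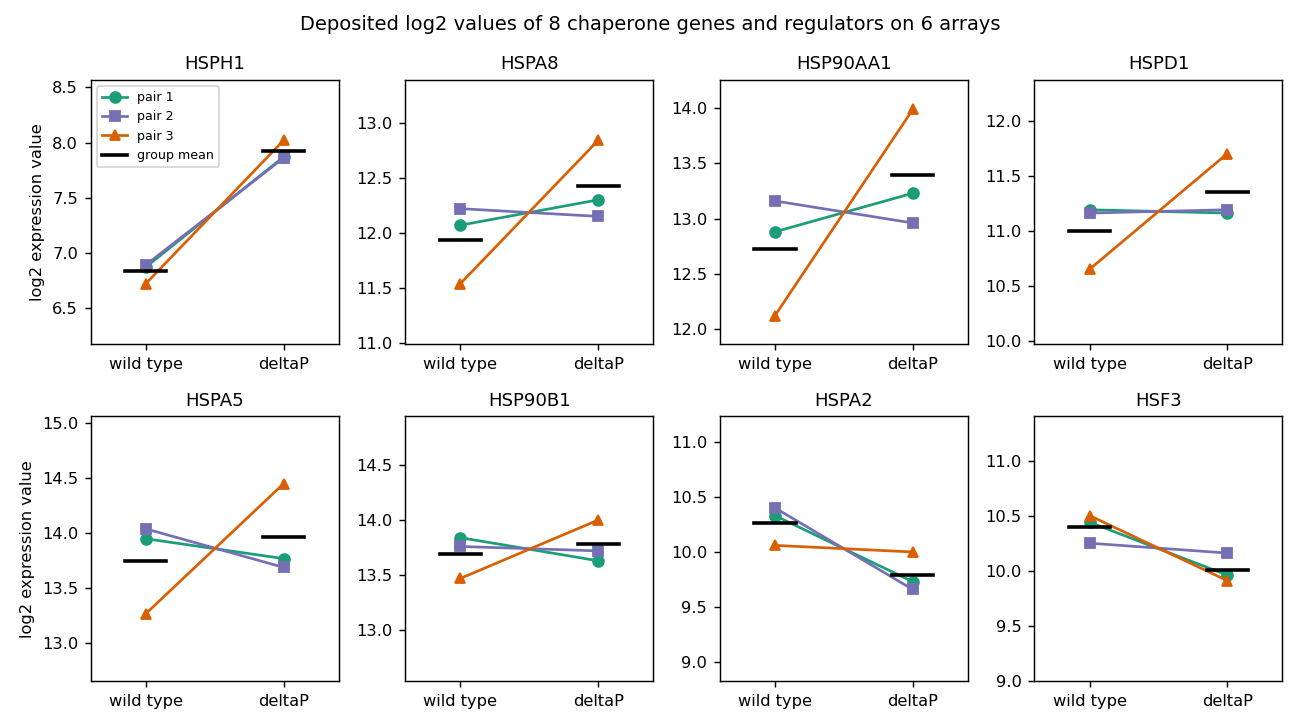
Deposited log2 expression values (vertical axes, of equal height in log2 units) of 8 genes in wild type and deltaP arrays; lines join the arrays of 1 pair and black bars are group means (n = 3). HSPH1 is higher in deltaP in all 3 pairs, HSPA2 and HSF3 are lower in all 3, and HSPA8, HSP90AA1, HSPD1 and HSPA5 differ most in pair 3.

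Among the HSP70 genes the values went in different directions. HSPA2, for which the gene table gives the synonym HSP70, had log2 values of 10.33, 10.4 and 10.06 on the wild type arrays and 9.73, 9.66 and 10 on the deltaP arrays. It was lower in deltaP in 3 of 3 pairs with differences of -0.6, -0.74 and -0.06. The mean log2 difference was -0.47 ± 0.36 (SD, n = 3 pairs), 1.38-fold lower, with an adjusted p of 0.44 in limma. HSPA8, known as HSC70, the HSP70 that cells make at all times, had 12.07, 12.22 and 11.54 in wild type and 12.3, 12.15 and 12.84 in deltaP. Its groups overlapped, and its difference of 0.48 ± 0.72 (SD, n = 3 pairs; limma adjusted p = 0.595) was made mostly by pair 3. HSPA2 and HSPA8 thus had mean differences of opposite sign.

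HSPA5, the HSP70 of the endoplasmic reticulum also called BiP, had log2 values of 13.95, 14.04 and 13.27 in wild type and 13.77, 13.69 and 14.45 in deltaP. Its differences in pairs 1, 2 and 3 were -0.18, -0.35 and 1.18, so the mean of 0.22 ± 0.84 (SD, n = 3 pairs) was smaller than the spread between pairs. HSPA4L, an HSP110-type relative of HSPA4, showed pair differences of 0.52, -0.07 and 0.92 (mean 0.46, limma adjusted p = 0.537). The corresponding values for HSPA4 were -0.29, -0.01 and -0.01. HSPA9, the mitochondrial HSP70, had 0.1, -0.39 and 0.47, HSPA13 had 0.26, -0.05 and 0.46, and HSPA14, which acts at the ribosome, had 0.14, -0.25 and -0.02. The 8 tested HSPA genes, grouped as HSP70 by symbol and so including HSPA4 and the HSP110-type HSPA4L, had medians of 0.12, -0.16 and 0.46 in pairs 1, 2 and 3. In pair 2, 0 of the 8 were higher in deltaP, where 53.9% of all genes tested were, and without pair 3 the median of their means was -0.1.

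The 3 HSP90 genes were all lower in deltaP in pair 2 and all higher in pair 3. Of all genes tested, 53.9% were higher in pair 2 and 45.8% in pair 3. HSP90AA1, the stress-inducible cytosolic HSP90, had log2 values of 12.88, 13.16 and 12.12 in wild type and 13.23, 12.96 and 13.99 in deltaP. The deltaP value of replicate 3 was the highest of the 6 and its wild type value the lowest. On values centred within pairs, that only restates that pair 3 had the largest difference. The HSP90AA1 difference was 1.87 in pair 3, or 3.66-fold, above that of 99.4% of the genes tested. It was 0.35 in pair 1 and -0.2 in pair 2. The mean difference of 0.68 ± 1.07 (SD, n = 3 pairs) had an adjusted p of 0.602 in limma and was 0.08 without pair 3. HSP90AB1, the constitutive cytosolic form, had 7.24, 8 and 7.56 in wild type and 8.33, 7.57 and 8.01 in deltaP. It differed most in pair 1 (1.1), with -0.43 in pair 2 and 0.45 in pair 3, and its groups overlapped (limma adjusted p = 0.735). HSP90B1, known as GRP94, the HSP90 of the endoplasmic reticulum, had 13.84, 13.76 and 13.47 in wild type and 13.63, 13.72 and 14 in deltaP. Its pair differences were -0.21, -0.04 and 0.53, and the sign of its mean of 0.09 turned without pair 3 (-0.13). The other HSP90B1 probe set, with a mean log2 value of 7.41, had -0.61, -0.33 and 0.19, a mean of -0.25.

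The mitochondrial chaperonin genes HSPD1 (HSP60) and HSPE1 (HSP10) are neighbours in the chicken gene table, with no protein-coding gene between them. HSPD1 had log2 values of 11.19, 11.16 and 10.65 in wild type and 11.16, 11.19 and 11.7 in deltaP. The first 2 pairs were nearly flat (-0.04 and 0.03) and pair 3 was 1.05 higher in deltaP, or 2.07-fold. HSPE1, whose product caps the HSPD1 ring, had 13.14, 13.18 and 12.96 in wild type and 13.03, 12.98 and 13.21 in deltaP. Its pair differences were -0.1, -0.2 and 0.26, in the direction of HSPD1 in pairs 1 and 3 on the probe sets used. The other HSPD1 probe set had 0.25, -0.03 and 0.73, and so differed in sign from HSPE1 in pair 1 but not in pairs 2 and 3. Adjusted p in limma was 0.67 for HSPD1 and 0.984 for HSPE1.

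All 8 genes of the cytosolic CCT ring were tested, and each had its highest difference in pair 3. Their ranges in pairs 1 and 2 overlapped. In pair 3 each of the 8 was higher in deltaP, between 0.34 (CCT6A) and 0.91 (CCT7), with a median of 0.6, where 45.8% of all genes tested were higher. In pair 2, 7 of the 8 were lower, between -0.26 (CCT5) and -0.01 (CCT4), and CCT3 was 0.09 higher (53.9% of all genes tested were higher). In pair 1, 5 of the 8 were higher (54.2% of all genes tested), within a range of -0.17 to 0.34. TCP1, the alpha subunit, had log2 values of 13.11, 13.21 and 12.88 in wild type and 13.24, 13.14 and 13.47 in deltaP, and its groups overlapped. On the probe sets used, the mean was higher in deltaP for 8 of 8 subunits (51.3% of all genes tested had a mean above 0). The median was 0.19, but adjusted p in limma ran from 0.56 to 0.829. Without pair 3 the median was -0.03. Another CCT8 probe set, past the filter on 6 arrays, was lower in all 3 pairs (-0.19, -0.46 and -0.88). Both other CCT6A probe sets had means below 0 (-0.15 and -0.12). The remaining CCT4 and CCT8 probe sets had means above 0 (0.37 and 0.23).

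**Figure D2:**
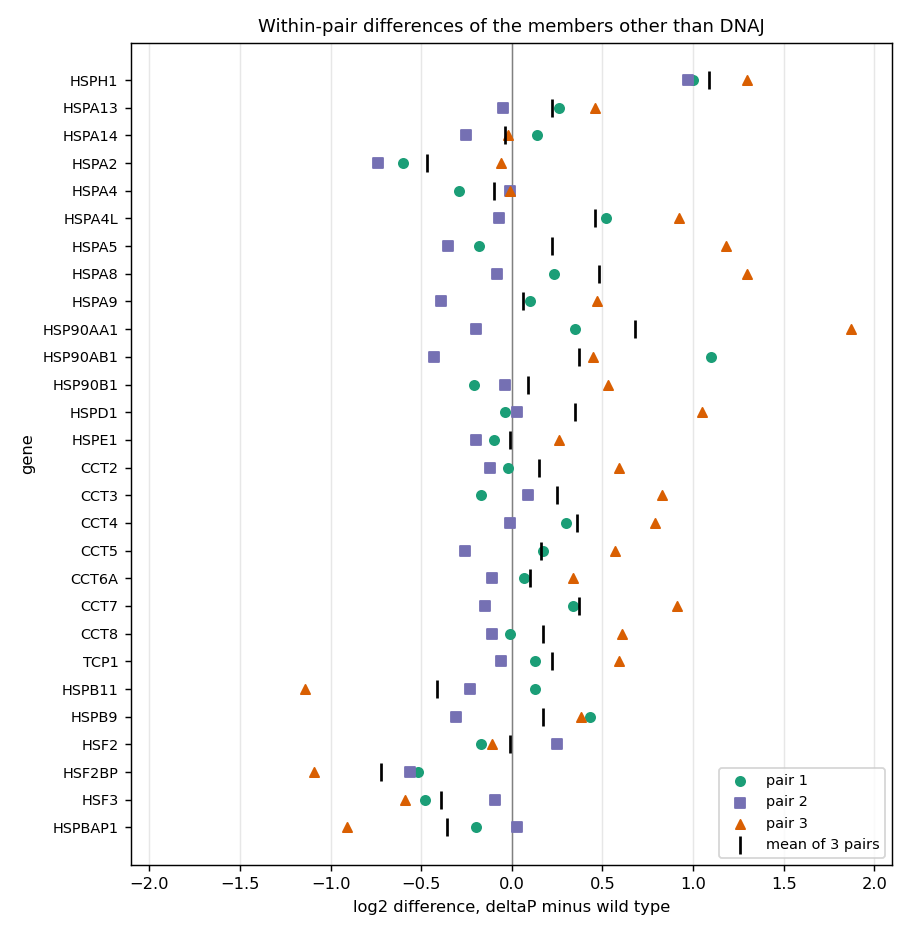
Log2 difference, deltaP minus wild type, in each of the 3 pairs (coloured symbols) and their mean (black bar) for the 28 tested members other than DNAJ, listed by role. Pair 3 lies to the right of pairs 1 and 2 for all 8 CCT and TCP1 genes, and HSPH1 is the only gene with all pairs above 0.

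Pair 3 held most of the large differences of the members. In that pair 18 of 61 members were over 0.5 log2 units higher in deltaP (29.5% of members, 11.8% of all genes tested), against 5 in pair 1 (8.2% of members, 9.59% of all genes) and 1, HSPH1, in pair 2 (1.64% of members, 7.04% of all genes). The 18 comprised 7 of 8 CCT and TCP1 genes, 3 of 8 HSPA genes, HSP90AA1 and HSP90B1 of 3 HSP90 genes, HSPD1, HSPH1 and 4 of 33 DNAJ genes. In the other direction 9 members were over 0.5 lower in pair 3 (14.8% of members, 18.8% of all genes), and 5 of these were DNAJC genes. Pair 1 had 5 members below -0.5 (8.2% of members, 9.38% of all genes) and pair 2 had HSPA2 and HSF2BP, which make 2 (3.28% of members, 6.31% of all genes). This is 1 pair of arrays, so the pattern has no replicate check, and the members had medians of 0.07, -0.04 and 0.27 in pairs 1, 2 and 3. Over all genes tested the medians were 0.03, 0.02 and -0.04.

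Other measures moved with pair 3. The 21 tested interferon response genes had medians of 0.17, 0.02 and 1.31 in pairs 1, 2 and 3. One of them, CMPK2, with means of 3.42 in wild type and 4.6 in deltaP, passed the filter on its deltaP arrays alone. The 25 tested cell cycle genes had -0.07, -0.26 and 0.64. The poly-A control RNAs, which are added before labelling, had median differences of -0.09, -0.06 and 0.71 over 27 probe sets. Hybridization controls had 0.05, -0.17 and 0.51 over 18 probe sets. Monocyte and macrophage markers had medians of 0.06, -0.02 and -0.28. The mean log2 level of the 14 markers ranged from 10.42 to 10.66 on wild type and from 10.24 to 10.47 on deltaP arrays. On values centred within pairs, the deltaP range mirrors the wild type range, so neither is a measured spread between cultures. Heterophil markers had medians of -0.15, -1.06 and 0.07, which cover large differences in both directions. In all 3 pairs, 3 of these markers were higher (S100A12, SERPINB10B and EXFABP) and 3 lower (AvBD4, AvBD6 and CATH1). S100A12 had 1.93, 2.77 and 1.82, and AvBD4 had -2.87, -2.76 and -1.3. Of all genes tested, 17.5% were higher and 15.9% lower in all 3 pairs. Markers of other blood cells had their lowest medians in pair 3, with -0.44, 0.83 and -1.91 in pairs 1, 2 and 3 for the 4 tested lymphocyte genes. Of these, CD3D, CD3E and TARP had -1.63, -2.19 and -2.47 in pair 3, and BTK had 0.32. TARP was lower still in pairs 1 and 2 (-3.91 and -2.8). The 4 tested erythroid genes had medians of 0.61, -0.02 and -1.4. In pair 3 the globin genes HBA1 and HBAD had -2.94 and -2.65, while GYPC and TAL1 had -0.15 and 0.36. GYPC, with means of 4.27 in wild type and 3.76 in deltaP, passed the filter on its wild type arrays alone. Its selection was therefore tied to its difference, and it weighs on these erythroid medians. The 2 tested thrombocyte genes had -0.21, -0.41 and -0.94, and the 3 tested fibroblast genes had -0.05, -0.03 and 0.22. Mean log2 levels over each whole list lay between 4.33 and 4.59 on wild type and 4.17 and 4.43 on deltaP arrays for the 13 lymphocyte genes. They lay between 3.7 and 4.22 and between 3.45 and 3.98 for the 10 erythroid genes. As for the monocyte and macrophage list, these ranges restate the pair differences. The part of these measures in the chaperone result was not tested.

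**Figure D3:**
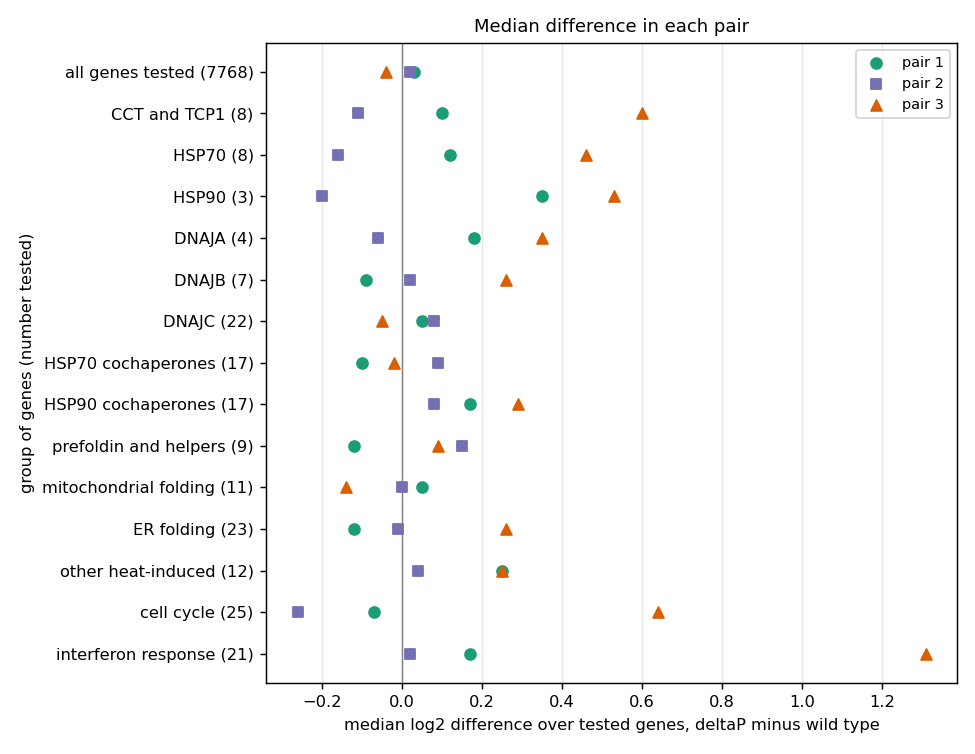
Median log2 difference, deltaP minus wild type, in each pair (symbols) for roles of the chaperone members, for other lists of folding genes and for 2 comparison lists, with the number of tested genes in brackets. Pair 3 is furthest right for CCT and TCP1, HSP70, HSP90, DNAJA and DNAJB. The same holds for the HSP90 cochaperone, endoplasmic reticulum, cell cycle and interferon lists. It does not hold for DNAJC or for the HSP70 cochaperone, prefoldin and mitochondrial lists. All genes tested stay between -0.04 and 0.03.

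The J-domain genes, 33 of which were tested, split by the sign of the mean much as the other members did. Of the DNAJ genes 22 had a mean above 0 and 11 below, where 51.3% of all genes tested were above 0. Of the 28 other members 19 were above 0 and 9 below. In all 3 pairs 10 DNAJ genes were higher and 3 lower, against 1 and 4 of the other members (17.5% and 15.9% of all genes tested). The DNAJ medians were 0.07, 0.06 and 0.17 in pairs 1, 2 and 3. DNAJB4, a cytosolic HSP40, had log2 values of 11.43, 11.29 and 11.42 in wild type and 10.96, 11.1 and 10.97 in deltaP. Its groups did not overlap, which on centred values restates that all 3 pairs were lower. It was 1.29-fold lower in deltaP (-0.37 ± 0.16, SD, n = 3 pairs), with an adjusted p of 0.386 in limma with the block and 0.0313 without it. The p without the block takes values centred within pairs as independent and is no support. A second DNAJB4 probe set was lower in all 3 pairs (-0.7, -0.15 and -0.34), and a dimmer one had differences of 0.31, -0.01 and -0.08.

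DNAJB6, which holds back protein aggregation, ran the other way. Its log2 values were 10.43, 10.47 and 10.4 in wild type and 10.71, 10.67 and 10.74 in deltaP. These pair differences of 0.27, 0.21 and 0.34 were among the most even of the members (0.27 ± 0.07, SD, n = 3 pairs; limma adjusted p = 0.513 with the block, 0.0275 without it). DNAJA2, a cytosolic partner of HSPA8, had 11.9, 11.85 and 11.84 in wild type and 12.05, 12.1 and 12.11 in deltaP, a difference of 0.22 ± 0.07 (SD, n = 3 pairs; limma adjusted p = 0.556 with the block, 0.0362 without it). For both genes the p without the block takes values centred within pairs as independent and is no support. On the probe sets used, all deltaP values of both genes were above all wild type values, by small steps. On centred values that restates that all 3 pairs were higher. The other DNAJB6 probe sets past the filter had 0.39, 0.14 and 0.24, and 0.23, 0.19 and -0.02. Those of DNAJA2 had -0.01, 0.09 and 0.46, and, on a dim probe set, 0.38, 0.3 and 0.4. On the probe sets used, DNAJB4 and DNAJB6, of the same DNAJB class, had opposite signs in 3 of 3 pairs. Each had been named for a small p in its own direction, so the contrast follows from that choice.

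DNAJC13, which acts on endosomes, had log2 values of 9.62, 9.71 and 9.31 in wild type and 9.99, 9.9 and 10.3 in deltaP. It was 1.43-fold higher (0.51 ± 0.42, SD, n = 3 pairs; unadjusted p = 0.0337 and adjusted p = 0.44 in limma), and its pair differences were 0.38, 0.18 and 0.98. DNAJB11, a co-chaperone of HSPA5 in the endoplasmic reticulum, had 8.25, 8.69 and 8.2 in wild type and 9.07, 8.63 and 9.13 in deltaP. It was higher in pairs 1 and 3 (0.82 and 0.93) but not in pair 2 (-0.06). DNAJC25 had 8.62, 8.47 and 8.44 in wild type and 8.75, 8.91 and 8.93 in deltaP, higher in 3 of 3 pairs (0.35 ± 0.2, SD, n = 3 pairs, limma adjusted p = 0.528). DNAJC1, a membrane protein of the endoplasmic reticulum, had 12.94, 12.76 and 12.74 in wild type and 12.4, 12.58 and 12.59 in deltaP, lower in 3 of 3 pairs (-0.29 ± 0.22, SD, n = 3 pairs; limma adjusted p = 0.51). DNAJC19, of the mitochondrial import machinery, had 5.97, 5.43 and 5.78 in wild type and 4.95, 5.5 and 5.14 in deltaP, lower in pairs 1 and 3 only.

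DNAJC8 and DNAJB14 are named for their high mean values. DNAJC8, a splicing-associated member, had pair differences of 0.16, 0.07 and 0.22, and DNAJB14, an endoplasmic reticulum membrane member, had -0.09, 0.02 and -0.39. DNAJA1 and DNAJC12 were singled out after their values were seen. DNAJA1, the main stress-inducible DNAJA partner of HSPA8, had 10.31, 10.43 and 9.53 in wild type and 10.52, 10.39 and 11.3 in deltaP. Its pair 3 difference of 1.77, above that of 99.3% of the genes tested, sat beside 0.21 and -0.04 in pairs 1 and 2. DNAJC12, which helps to fold aromatic amino acid hydroxylases, was the member lowest in pair 3, with differences of -0.19, 0.06 and -1.75, where 0.927% of the genes tested lay below it.

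**Figure D4:**
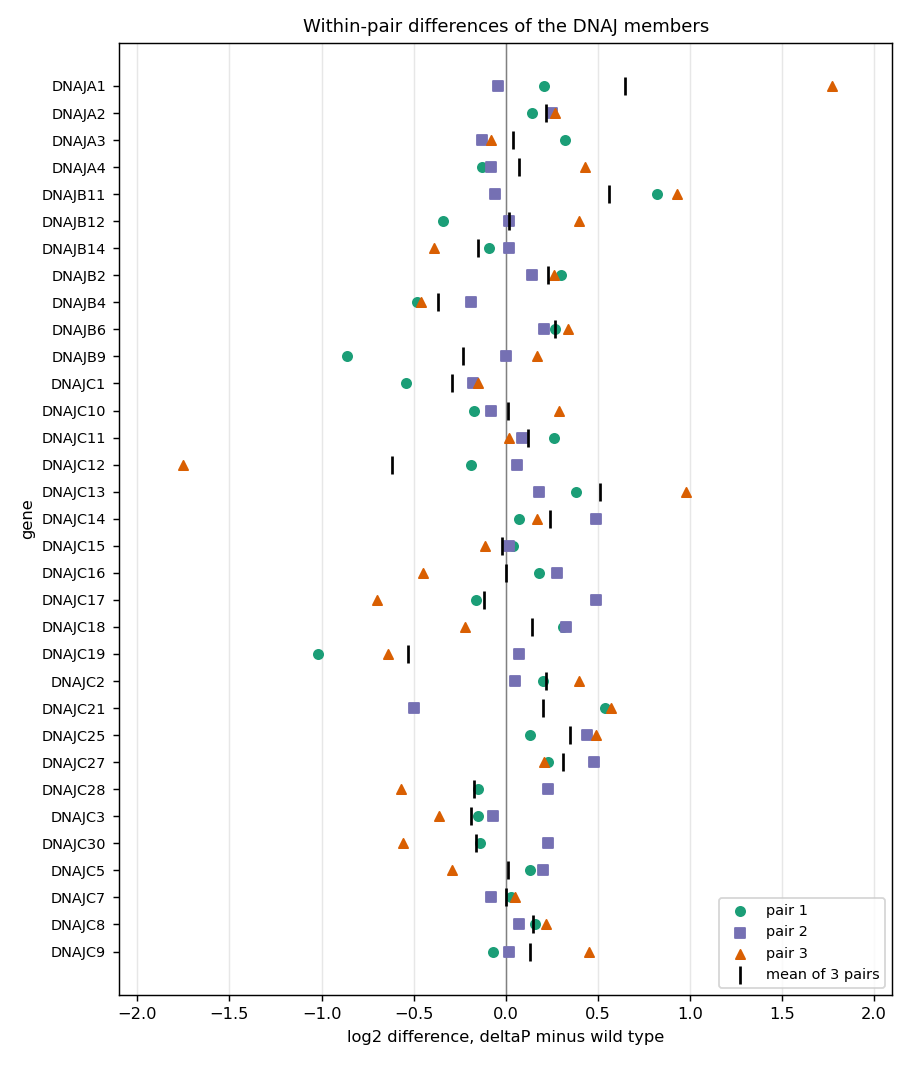
Log2 difference, deltaP minus wild type, in each of the 3 pairs (coloured symbols) and their mean (black bar) for the 33 tested DNAJ genes. DNAJB4 has all pairs below 0, DNAJB6 and DNAJA2 have all pairs above 0 within a narrow range, and DNAJA1 and DNAJC12 differ most in pair 3, in opposite directions.

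Of the heat shock factors, HSF3 and HSF2 were tested, HSF4 and HSF5 were below the filter and HSF1 was not analysed here under its own symbol. HSF3, for which the gene table lists HSF1 among the synonyms, was read by probe sets whose separation from HSF1 was not checked. Its log2 values were 10.44, 10.25 and 10.5 in wild type and 9.96, 10.16 and 9.91 in deltaP. The groups did not overlap, which on centred values restates that all 3 pairs were lower. The gene was 1.31-fold lower in deltaP (-0.39 ± 0.26, SD, n = 3 pairs, unadjusted p = 0.0387 and adjusted p = 0.469 in limma). Its pair differences were -0.48, -0.09 and -0.59. The other HSF3 probe sets had -0.56, -0.15 and -0.07, and -0.22, 0.15 and -0.21, so that 1 of them was lower in all pairs and the other in pairs 1 and 3. On the probe set used, HSF3 was lower in pair 3 (-0.59), the pair in which HSP90AA1, DNAJA1, HSPA8 and the CCT genes were higher. It was also lower in pair 1 (-0.48). Whether these differences are related was not tested. HSF2, a developmental member of the family, had 9.18, 8.97 and 9.15 in wild type and 9.01, 9.22 and 9.04 in deltaP, with overlapping groups and a mean difference of -0.01 ± 0.22 (SD, n = 3 pairs).

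Among the genes that share a prefix but not the chaperone role, HSF2BP had 4.46, 4.48 and 4.74 in wild type and 3.94, 3.91 and 3.65 in deltaP, just around the filter value of 4. It was 1.65-fold lower (-0.72 ± 0.32, SD, n = 3 pairs; limma adjusted p = 0.426 with the block and 0.0332 without it). As HSF2BP passed the filter on its wild type arrays alone, its selection was tied to this difference, and these p-values are no support for it. HSPBAP1 had pair differences of -0.2, 0.03 and -0.91. HSPB11 had 0.13, -0.23 and -1.14. HSPB9, listed as HSP25 in the gene table and the small heat shock protein gene that chicken cells induce by heat, had 0.43, -0.31 and 0.38, with a mean of 0.17 ± 0.41 (SD, n = 3 pairs).

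Probe sets other than the ones used gave a partial second reading of the same arrays. For 35 tested members there were 52 further probe sets past the filter, and 33 of the 52 had a mean difference of the same sign as the probe set used. The sign was shared by 38 in pair 1, 33 in pair 2 and 36 in pair 3. HSP90AA1 had 1.87 and 1.99 on its 2 probe sets in pair 3, DNAJA1 had 1.77 and 1.79, HSPA4L had 0.92 and 0.93, HSPD1 had 1.05 and 0.73, and CCT4 had 0.79 and 0.59. In pair 3, 16 of the 52, from 14 genes, had the opposite sign. CCT8 had 0.61 on the probe set used and 0.41 and -0.88 on the others. CCT6A, the lowest of the CCT genes in pair 3 at 0.34, had -0.5 and 0.01 on its dimmer ones. DNAJB12 had 0.4 against -0.53 and -0.19, HSPB9 had 0.38 against -0.13, and DNAJC19 had -0.64 against 0.2. HSPA8, HSPA5, HSPA2, HSPE1, HSP90AB1 and TCP1 had 1 probe set each. The chosen probe set of 27 members was of a kind made to match several transcripts, of 1 gene or of close relatives, among them those of HSPA8, HSPD1, HSPE1, TCP1 and DNAJA1.

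**Figure D5:**
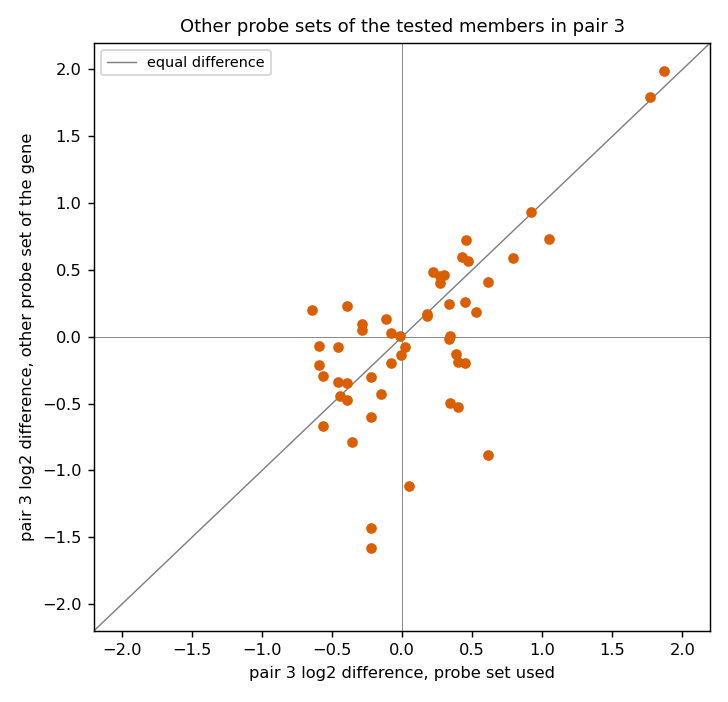
Pair 3 log2 difference, deltaP minus wild type, of the 52 other probe sets of tested members (vertical axis) against that of the probe set used for the same gene (horizontal axis), each point 1 probe set. HSP90AA1 and DNAJA1 lie at the upper right near the line of equal difference, and 36 of 52 points share the sign of the probe set used.

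The wider folding network was read from 6 fixed lists of 91 genes outside the members, of which 82 were tested. The lists share some genes, such as FKBP4 and HYOU1, so counts per list are not separate observations. Limma with the block called 0 of the 82 at an adjusted p under 0.05, and at an unadjusted p under 0.05 it gave 5 higher (6.1% of the list, 3.89% of all genes) and 3 lower (3.66% of the list, 6.04% of all genes). The median difference was 0.04. In all 3 pairs 16 genes were higher (19.5% of the list, 17.5% of all genes) and 11 lower (13.4% of the list, 15.9% of all genes), near the background. Of the 17 tested HSP90 cochaperone genes, 12 had a mean above 0, as had 51.3% of all genes tested, and their median was 0.18. FKBP4, a peptidyl-prolyl isomerase that binds HSP90 in steroid receptor complexes, had pair differences of 0.28, 0.12 and 0.63 (unadjusted p = 0.0469). SUGT1, a client adaptor, had 0.5, 0.08 and 0.45, and NUDC, a co-chaperone linked to the dynein motor, had 0.21, 0.16 and 0.61. FKBP5, a relative of FKBP4 that glucocorticoids induce, had -0.41, -0.72 and -0.69, 1.52-fold lower, with an adjusted p of 0.249 in limma (unadjusted p = 0.00411).

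HSP70 cochaperones were split, 9 of 17 above 0 (51.3% of all genes tested) with a median of 0.03. BAG2, an inhibitor of the ubiquitin ligase STUB1, was 2.51-fold lower in deltaP, with pair differences of -1.96, -0.29 and -1.73 (unadjusted p = 0.0115 and adjusted p = 0.332 in limma). STUB1 itself, also called CHIP, which marks HSP70 clients for degradation, had 0.45, 0.38 and 0.21 (unadjusted p = 0.037). GRPEL2, a mitochondrial exchange factor, had -0.24, 0.09 and -1.33. ST13P5, listed as a synonym of the HSP70-interacting ST13, had -0.33, -0.29 and 0.04.

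In the endoplasmic reticulum list 15 of 23 genes were above 0, where 51.3% of all genes tested were. Its median was -0.12, -0.01 and 0.26 in pairs 1, 2 and 3. PDIA3, a disulfide isomerase for glycoproteins, had 0.25, 0.37 and 1.63 (1.69-fold higher, unadjusted p = 0.0368 and adjusted p = 0.461 in limma). CALR had -0.11, 0.45 and 0.94 and CANX, its membrane-bound relative, 0.15, 0.18 and 0.31. ERO1B, an oxidase for disulfide formation, had -0.45, -0.04 and -0.37. Among 11 mitochondrial folding genes 4 were above 0 and 7 below (51.3% of all genes tested were above 0). YME1L1, a protease of the inner membrane, had 0.5, 0.22 and 0.45 (unadjusted p = 0.0144) and HSCB, a J-domain protein of iron-sulfur assembly, had -0.31, -0.17 and -0.46 (unadjusted p = 0.0403).

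CLPX and TIMM44 had means of -0.13 and 0.15. Prefoldin and chaperonin helper genes had a median of 0.04 over 9 tested, and none had an unadjusted p under 0.05 in limma. The smallest p there belonged to BBS12, PDCL3, TXNDC9 and PFDN5, with mean differences of 0.3, 0.23, -0.19 and -0.18. Of 17 other genes known to respond to heat, 5 were below the filter, namely BAG3, CRYAB, CRYAA, SERPINH1 and FOS. BAG3, an HSP70 exchange factor that heat strongly induces, had means of 2.94 in wild type and 3.97 in deltaP, with untested pair differences of 0.66, 0.34 and 2.11. Of the 12 tested, 9 were above 0 (51.3% of all genes tested). CHORDC1, FKBP4, CACYBP, AHSA1 and STIP1 among them were also on a cochaperone list. HMOX1, which breaks down heme, had 1.54, 0.21 and -0.32. JUN had 0.78, 0.38 and -0.17. AHSA1, an activator of the HSP90 ATPase, had 0.26, -0.04 and 0.62.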

How the data were processed

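Per the labels' protocols, biotin-labelled cRNA made from total RNA went onto 6 Affymetrix chicken arrays. The deposited log2 table covers 38535 probe sets, 96 of them controls. The submitters' processing notes name Partek 6.4 and GCRMA. GCRMA pulls dim probe sets towards a floor, which can distort their differences. How the replicate number was removed is not stated in the labels; deviations from the group means correlated at -1 within each pair, and the labels do not say what a pair shares. The values carry no depth, and the number of arrays limits the precision. With 3 pairs, an exact sign test cannot give a two-sided p below 0.25.

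Genes came from the platform annotation (27168 probe sets with 1 symbol, 177 with several, 11094 with none). A RefSeq gene table of GRCg7b changed 0 symbols. Genes with a log2 value over 4 on at least 3 arrays were fitted in limma 3.58.1 (R 4.3.3), with the replicate number as a block, an intensity trend and two-sided tests, adjusted by Benjamini-Hochberg over 7768 genes with a threshold of 0.05. The alternatives are given in the closing section. Members, lists and tests were chosen with earlier results of these data known. Marker lists were matched by symbol alone, a change made after synonyms had named wrong genes; other lists also by synonym. Named genes were the main HSP, HSF and CCT genes, the 5 members with the smallest p in each direction, the 8 DNAJ genes with the smallest p and the 4 with the highest mean, and up to 4 genes with the smallest p per other list. No sequences are shown.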

Additional observations from a re-analysis of the deposited data

How the results depend on the processing

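Limma with the block gave 0 calls among members, other folding genes and all genes under each alternative that kept the block. With no replicate block it gave 5 members (HSPH1, DNAJB6, DNAJA2, DNAJB4 and HSF2BP), 5 other folding genes and 640 genes, and at an unadjusted p under 0.05 it gave 13 members higher (21.3%) and 7 lower (11.5%), and 13 other folding genes higher (15.9%) and 8 lower (9.76%), where 14.0% of all genes were higher and 13.4% lower. That fit treats values centred within pairs as independent. Without the intensity trend, 1 member was higher (1.64%) and 2 were lower (3.28%) at an unadjusted p under 0.05, and 1 other folding gene was higher (1.22%). Of all genes, 3.91% were higher and 5.65% lower in that fit. Other folding genes higher at that p numbered 3 with no filter on low values (3.3%, against 2.55% of all genes). They numbered 2 with the mean of the probe sets (2.44%, against 4.33% of all genes). Leaving out 1 pair, which leaves 1 residual degree of freedom, gave 1 to 10 members higher and 0 to 4 lower (0.0% to 6.56%). Other folding genes numbered 3 to 7 higher (3.66% to 8.54%) and 1 to 2 lower (1.22% to 2.44%). Of all genes tested, 1.6% to 6.67% were higher and 3.1% to 6.5% lower in these fits. The 10 (16.4% of members) came without pair 2, where 3.72% of all genes were higher; without pair 1 the count of 1 (1.64%) stood beside 1.6% of all genes, and without pair 3 the count of 1 beside 6.67%.

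The HSF median of -0.39 was over 3 genes grouped by symbol, HSF2, HSF3 and HSF2BP. HSF2BP is not a heat shock factor and passed the filter on its wild type arrays alone. With no filter the median moved to -0.03, because the dim HSF4 and HSF5 entered. With a mean log2 value above 6, which drops HSF2BP and leaves HSF2 and HSF3, it was -0.2. The median of all members was 0.04 with no filter, 0.05 with the mean of the probe sets and 0.03 to 0.16 when 1 pair was left out, the lowest without pair 3. Leaving out 1 pair, the HSP90 median ran from 0.08 to 0.77. Of 187 combinations of a named member and an alternative, 9 turned the sign of a difference that no fit called. Leaving out 1 pair, the differences ran from -0.26 to 0.5 for HSPA5, from -0.13 to 0.24 for HSP90B1, from 0 (just below it) to 0.54 for HSPD1, from -0.15 to 0.08 for HSPE1 and from -0.14 to 0.07 for HSF2. The lowest value came without pair 3 for HSPA5, HSP90B1, HSPD1 and HSPE1 and without pair 2 for HSF2. HSPE1 turned without pair 1 (0.03) and without pair 2 (0.08), and HSF2 without pair 1 (0.07) and without pair 3 (0.04). With the mean of the probe sets HSP90B1 was at -0.08 and HSF2 at 0.01. Centring each array on its median turned no sign. Dim probe sets near the filter value limit what can be said of small heat shock proteins.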

Other observations

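Across the 61 tested members, the differences in pairs 1 and 3 correlated at r = 0.48 (Spearman rho 0.5), those in pairs 1 and 2 at 0.17 (0.05) and those in pairs 2 and 3 at -0.02 (-0.17). Over all 7768 genes tested the values of r were 0.22, 0.36 and 0.05 in the same order. These are correlations across genes of the same arrays, and genes are not independent replicates. The 5 DNAJC members over 0.5 log2 units lower in pair 3 were DNAJC12, DNAJC17, DNAJC19, DNAJC28 and DNAJC30. DNAJC17, DNAJC28 and DNAJC30 were each lower in pair 1 (-0.16, -0.15 and -0.14) and higher in pair 2 (0.49, 0.23 and 0.23), and their names were chosen after the values were seen.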
